A study of Mus musculus with 16 samples.

Results

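Small nuclear RNAs (snRNAs) were read out as a side class of small RNA libraries from mouse airway cultures. All rows that the deposited table puts in its snRNA class were taken, 50 of 1269 rows, whatever their values. The cultures were primary tracheal epithelial cells grown on membranes, where exposure of the upper surface to air makes a layer of basal-type cells form multiciliated cells. WT cultures came from wild-type mice and KO cultures from mice with a global knockout of p73, a transcription factor of the p53 family. Each genotype was harvested at day 0, 4, 7 and 14 of air exposure, with 2 libraries per genotype and day, numbered replicates 2 and 3, and 16 libraries in all. The submitters call the replicates independent biological ones. p73 is absent from the whole animal and not only from the epithelium, and its transcript is no row of this table, so these values hold no check of the knockout.

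Spliceosomal snRNAs are short, abundant, stable RNAs that act as ribonucleoproteins in the nucleus. U1 recognises the 5′ splice site, U2 the branch point, and U4, U5 and U6 join as a preformed particle in which U4 is paired with U6. U11 and U12 do the work of U1 and U2 for the rare minor introns, and U7 acts outside splicing, in the 3′ end processing of histone transcripts. Most of them carry an AU-rich site that binds a ring of Sm proteins. They are made in every cell type, and many near-identical gene copies and pseudogenes lie scattered over the genome.

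The values are normalised reads, that is, reads divided by a size factor for the library. The libraries held 197497 reads (WT day 0 replicate 2) to 1777272 reads (WT day 14 replicate 2), as recovered from these values, so each snRNA row rests on few reads. Of the 50 rows, 47 had a value at day 0, and 27, 5 and 4 had one at days 4, 7 and 14. The table as a whole thins in the same way, from 1229 rows with a value at day 0 to 800, 321 and 304. The smallest mean of a filled row over the 4 libraries of a day was 16.412 at day 7 and 14.968 at day 14. A blank at the later days therefore does not show that an snRNA was lost. A row was tested at a day where at least 2 of its 4 libraries reached a value of 10, and 6, 6, 5 and 4 snRNA rows did at the 4 days. In all, 9 rows passed at some day and Gm24265 and Rnu11 passed at every day. The other 41 never passed. Their highest value was 13.2, in Gm22710, and the median of their highest values was 1.57. Among all 50 rows, 28 never exceeded 3 reads in a day 0 or day 4 library, and 13 of those rested on 1 read in 1 library.

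The culture carried the miRNAs of epithelium. miR-205-5p, a basal and stratified epithelial miRNA, lay between 6797 and 18690 in the 16 libraries. Of the others of that kind looked for, miR-203-3p lay between 4.7 and 34.15. miR-184-3p lay between 1.65 and 14.77 at days 0 and 4, higher in KO, and was blank later. miR-31-5p was at 618.53 and 401.98 in WT and 1047.08 and 958.57 in KO at day 14. Its KO libraries lay above both WT libraries at days 0, 7 and 14 and overlapped them at day 4. miR-449a-5p, a multiciliated cell miRNA, lay between 1.21 and 23.64 at day 0 and between 3678 and 5288 at day 14. Other multiciliated cell miRNAs separated the genotypes at day 14, miR-34c-5p at 3999.73 and 3288.47 in WT and 1112.19 and 1227.04 in KO, and miR-34b-3p at 317.68 and 410.84 in WT and 120.92 and 86.72 in KO. miR-449c-5p differed by less, at 5967.74 and 6155.48 in WT and 4931.1 and 4848.19 in KO, and miR-449a-5p overlapped between the genotypes. The part of these miRNAs in the snRNA differences of that day was not tested. The haematopoietic and muscle miRNAs looked for (miR-142a, miR-223, miR-1a and miR-133a) were no rows of the table. The endothelial miR-126a and the erythroid miR-451a did not exceed 2.95. Of the mesenchymal miRNAs, miR-143-3p reached 45.54, while miR-145a-5p did not exceed 1.88 at days 0 and 4 and was blank later. In bulk cultures, fewer cells of a type and less RNA per cell cannot be told apart.

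Of the 50 rows, 5 have a family name in the table (Rnu1a1, Rnu5g, Rnu7, Rnu11 and Rnu12), and the other 45 carry predicted-gene symbols. All 50 symbols and coordinates matched the GENCODE M21 annotation of GRCm38. Each sequence was compared with named U1, U2, U5, U6, U7, U11 and U12 genes of that annotation. No U4 gene was among these references, so a U4-like row could not be grouped as such. A row was grouped with the nearest reference at 70% identity or more. By this rule 13 rows were U1-like (72.5% to 100% identical), 7 U2-like (79.4% to 99.5%), 7 U5-like (91.4% to 100%) and 14 U6-like (72.2% to 97.2%). Rnu7, Rnu11 and Rnu12 stood alone as U7, U11 and U12. The remaining 6 rows were similar to none, with Gm22970 just outside the limit at 69.4% to the U2 gene Rnu2-10 and Gm25514 the least similar row inside the U1 group at 72.5%. The 2 rows with the highest values of the class, Gm24265 and Gm24407, are among these 6. No family is given to them here, and their likeness to U4 was not tested.

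The sequences below belong to the rows on which the results turn, from GENCODE M21 and GRCm38, written 5′ to 3′ as the gene is transcribed. The capitals mark the first match to AATTTNTN, letters chosen after the site that binds Sm proteins. Gm24265 and Gm24407 come first because they carried most of the class at the later days. Rnu11 and Rnu12 are snRNAs specific to the minor spliceosome, and Gm22513 and Gm26316 are near-copies of U1 and U2 that passed the filter.
Gm24265 (chr5:115489459-115489599, plus strand): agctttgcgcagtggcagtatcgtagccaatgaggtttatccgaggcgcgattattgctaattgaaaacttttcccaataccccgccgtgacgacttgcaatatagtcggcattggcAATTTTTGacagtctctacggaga
Gm24407 (chr5:115490254-115490394, plus strand): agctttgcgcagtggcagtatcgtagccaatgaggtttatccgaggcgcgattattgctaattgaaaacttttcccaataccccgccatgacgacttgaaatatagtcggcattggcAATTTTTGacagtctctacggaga
Rnu11 (chr4:132270080-132270213, minus strand): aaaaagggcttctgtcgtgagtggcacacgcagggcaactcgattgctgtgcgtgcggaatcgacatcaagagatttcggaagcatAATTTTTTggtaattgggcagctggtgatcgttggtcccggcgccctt
Rnu12 (chr15:83149644-83149794, plus strand): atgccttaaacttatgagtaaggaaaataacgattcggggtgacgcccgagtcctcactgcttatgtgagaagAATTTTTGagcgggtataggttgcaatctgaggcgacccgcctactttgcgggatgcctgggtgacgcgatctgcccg
Gm22513 (chr12:54696782-54696945, plus strand): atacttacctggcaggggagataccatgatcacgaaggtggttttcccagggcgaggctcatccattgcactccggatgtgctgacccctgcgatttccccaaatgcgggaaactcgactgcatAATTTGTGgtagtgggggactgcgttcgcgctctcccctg
Gm26316 (chr11:101604850-101605040, plus strand): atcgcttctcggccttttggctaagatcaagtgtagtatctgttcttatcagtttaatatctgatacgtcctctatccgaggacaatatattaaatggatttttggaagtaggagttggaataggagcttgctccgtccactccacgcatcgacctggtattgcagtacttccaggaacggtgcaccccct

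Gm24265 and Gm24407 are neighbours on chromosome 5, both 141 bases long, on the same strand and 654 bases apart, with no other gene annotated over them. They are 98.6% identical and differ by G88A and C99A, with Gm24265 first and positions counted from the 5′ end. Their longest shared run is 87 bases. A short read that covers neither position fits both rows, and 74.6% of the 20-base words of each also occur in other annotated snRNA genes. How the submitters assigned such reads is not given in the sources used here, so the level of either row is uncertain. At positions 5 to 12 both hold the run ttgcgcag, which is complementary to bases 63 to 70 of Rnu6, the U6 gene. Of the 1383 annotated snRNA genes, 12.3% hold some 8-base complement to Rnu6, and Gm22513 does too, at another place.

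The other tested rows also have close copies. Gm22513 is 99.4% identical to the U1 gene Rnu1a1 and differs from it by C60T, with Gm22513 first. Rnu1a1 itself had 1 read in 1 library (KO day 0 replicate 3), and 6 other annotated genes share its exact sequence. Gm26316 is 99.5% identical to Rnu2-10 and Gm25360 is 97.9%. Rnu1a1 is named here after its values were seen.

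AATTTNTN was found on the sense strand of 27 of the 50 rows (54%) and of 7 of the 9 that passed the filter (77.8%). Of all 1383 annotated snRNA genes 21.8% hold it, and of the 1507 annotated snoRNA genes 1.92%. On the antisense strand it was in 10% of the 50 rows and 15.1% of all snRNA genes. By group, 12 of 13 U1-like rows, 7 of 7 U5-like rows, 2 of 14 U6-like rows and 0 of 7 U2-like rows had it. A row without these letters may still hold an Sm site, and a row with them need not. The U2-like Gm26316 holds gatttttg, which differs from AATTTNTN in the first letter alone. Of all rows, 22 had no other gene over them, 19 lay in an intron of a protein-coding gene, 2 in an exon of one and 7 over non-coding genes only. Rnu11 overlaps an exon of the lincRNA Gm28872 on the opposite strand, and Rnu7 lies within an exon of Grcc10 on the same strand, so reads of these genes could be shared.

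At day 0 the class was made of many small contributions. U2-like rows held 20.7%, 28.1%, 26.8% and 36.7% of the summed snRNA values in WT replicates 2 and 3 and KO replicates 2 and 3. U5-like rows held 24.1%, 14%, 21.3% and 20.9% in the same order. The 6 rows similar to none of the references held 22.4%, 21.1%, 21.3% and 15.8%. U6-like rows, although 14 in number, held 1.39% to 4.38%, and none of them exceeded a value of 2.43 at any day. At day 4 the rows similar to none of the references held 28.1% and 37% in WT and 21.9% and 59.4% in KO. KO day 4 replicate 3 stood apart from the other 3 libraries of its day.

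**Figure D1:**
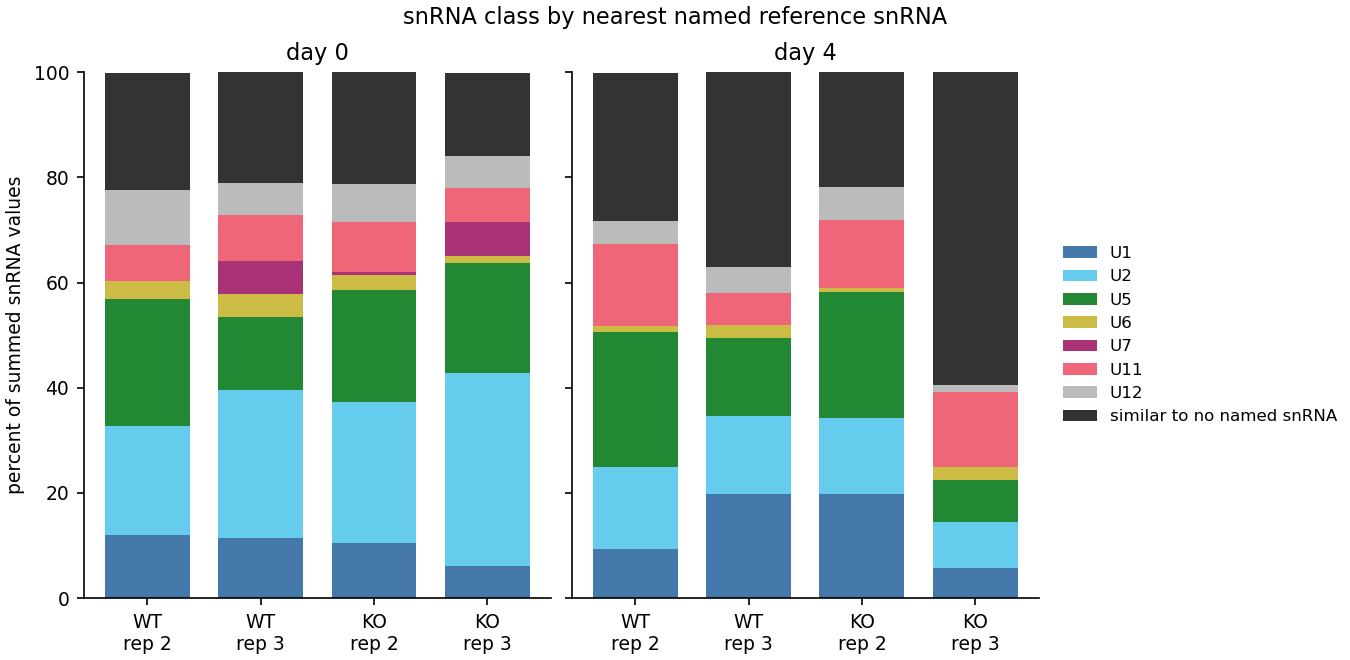
Stacked bars give the percent of the summed snRNA values of each library (y axis) by the named snRNA that a row resembles at 70% identity or more, for the 4 libraries of day 0 and the 4 of day 4. The dark block is of rows similar to none of the references, which included no U4 gene. It held 15.8% to 22.4% at day 0 and 59.4% in KO day 4 replicate 3, while U6-like rows stayed at or under 4.38% everywhere.

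Gm24265 was the highest snRNA row at days 7 and 14 in all 8 libraries. At day 0 its deposited values were 10.16 and 18.2 in WT and 13 and 15.65 in KO, in replicates 2 and 3. At day 14 they were 57.8 and 38.96 in WT and 111.62 and 183.59 in KO. The genotypes overlapped at day 0 and did not at day 14, where both KO libraries lay above both WT libraries. Between these days it stood at 20.53 and 29.65 in WT and 11.9 and 101.55 in KO at day 4, and at 44.18 and 66.81 in WT and 59.2 and 115.39 in KO at day 7. Both of those days overlapped, and at day 4 the KO pair spanned the WT pair. The reads behind the day 14 values numbered 127, 22, 84 and 199, so the WT replicate 3 value rests on the fewest.

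The values of different days were scaled separately by the submitters. For comparisons of days they were put on a common scale by 1 shift per day, and each later day was compared with day 0 within a genotype in limma, over all rows tested. In KO cultures Gm24265 was at 14.84 and 17.87 at day 0 and at 107.7 and 177.15 at day 14 on this scale, a mean of 16.4 ± 2.14 and 142 ± 49.1 (SD, n = 2). It rose by a log2 of 3.01, 8.05-fold (SE 0.7, 95% interval 1.52 to 4.5, adjusted p = 0.00628 in limma with Benjamini-Hochberg adjustment). Without a block for replicate number, it was the one call among the snRNA rows in any of the 12 comparisons, and of the 279 rows of the table tested here 28.3% were called. The other snRNA row tested, Rnu11, was not called. Without KO day 14 replicate 3 the log2 of Gm24265 was 2.65 and its adjusted p in limma was 0.0645, so that library decides the call.

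**Figure D2:**
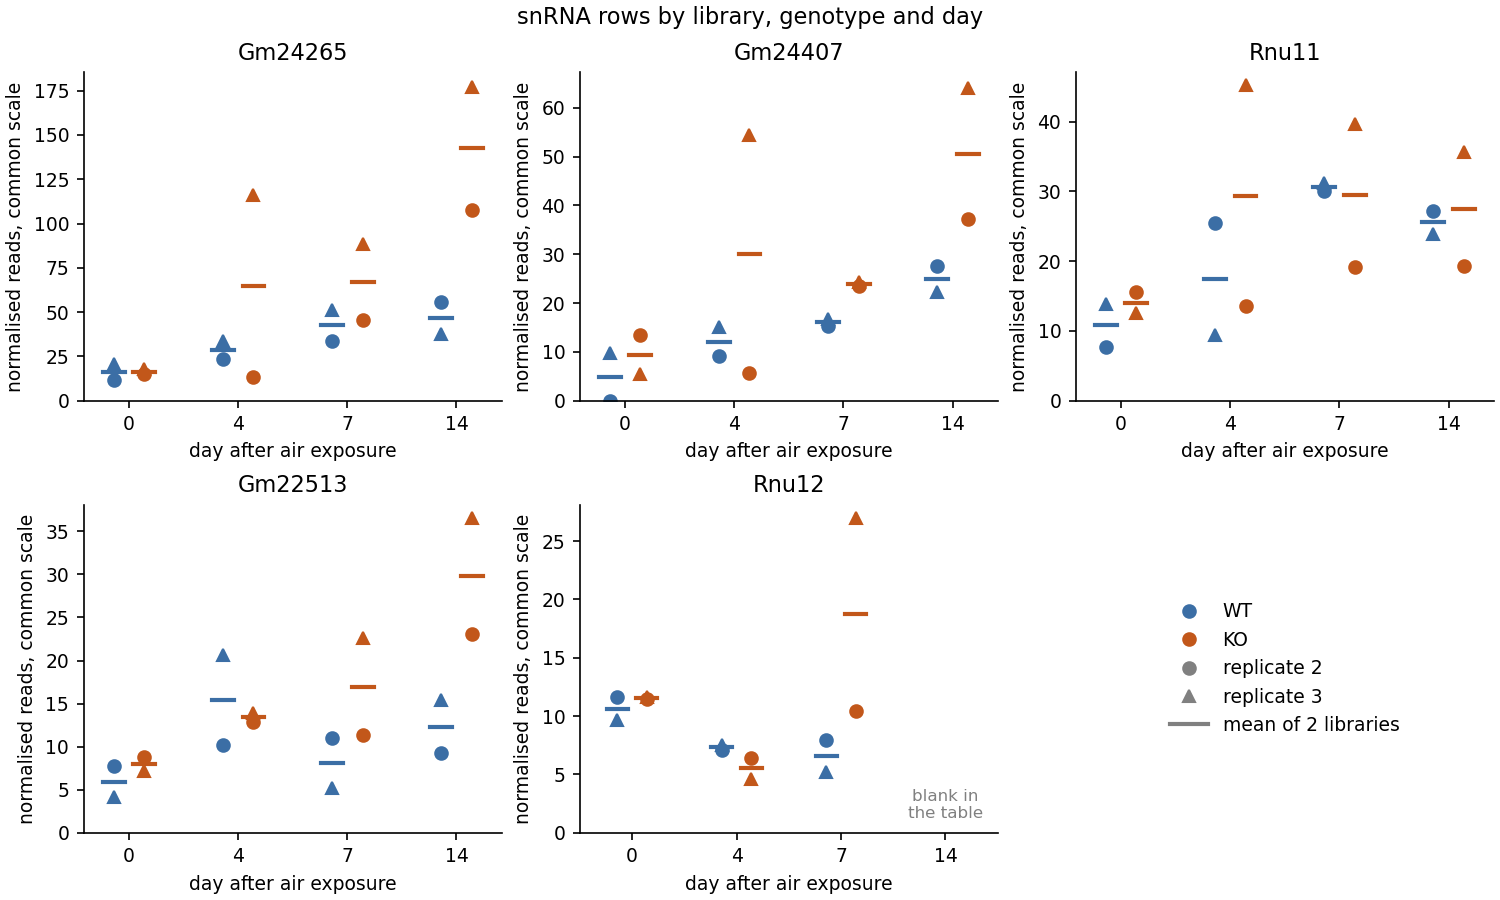
Each panel plots 1 snRNA row by day of air exposure (x axis) in normalised reads on the scale common to all days (y axis, from 0), with a circle for replicate 2, a triangle for replicate 3 and a bar for the mean of the 2 libraries of a genotype. Gm24265 lies at 107.7 and 177.15 in the KO libraries of day 14 and at 55.77 and 37.59 in the WT ones, and the triangle of KO day 4 stands far above its pair in Gm24265, Gm24407 and Rnu11.

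In WT cultures Gm24265 was at 11.6 and 20.78 at day 0 and at 55.77 and 37.59 at day 14 on the common scale. Both later libraries lay above both day 0 libraries, but the log2 of 1.5 (SE 0.7, 95% interval 0.01 to 2.99) had an adjusted p of 0.161 in limma. Scaled to library totals it was 0.49, where the median of all rows was -1.08. In that comparison 16.1% of rows were called and neither of the 2 snRNA rows tested. At day 7 against day 0 its log2 was 1.36 in WT (adjusted p = 0.22 in limma) and 1.89 in KO (adjusted p = 0.108 in limma). The difference between the genotypes in the change from day 0 to day 14 was a log2 of 1.51 (SE 0.99, 95% interval -0.6 to 3.62, adjusted p = 0.503 in limma). The call in KO and its absence in WT are therefore not shown to differ. In the interaction 0.0% of rows were called by limma, while 52 of 279 had an unadjusted p under 0.05.

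Gm24407 had lower values than its neighbour in each library and, on the common scale, was highest in the same KO libraries, replicate 3 of days 4 and 14. At day 0 it stood at 0 and 8.49 in WT and 11.82 and 4.7 in KO. Its day 4 values were 8.03 and 13.18 in WT and 5.01 and 47.73 in KO, the last again in replicate 3. At day 7 it was at 20.08 and 21.82 in WT and 30.74 and 31.73 in KO, and at day 14 at 28.67 and 23.02 in WT and 38.53 and 66.43 in KO. Both KO libraries lay above both WT libraries at days 7 and 14. The value of 0 in WT day 0 replicate 2 allows up to 3 reads. In the other 15 libraries the ratio of Gm24265 to Gm24407 ran from 1.1 to 3.64, and the shared sequence limits what a ratio of the pair can show. At day 0 Gm24407 did not pass the filter, so its time course was tested only when all rows with values were kept: the log2 at day 14 against day 0 was then 2.98 in WT (adjusted p = 0.05 as rounded, just past the threshold and not called) and 2.38 in KO (adjusted p = 0.0795), both in limma.

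Rnu11, the U11 snRNA that recognises the 5′ splice site of minor introns, overlapped between the genotypes at every day. Its deposited values were 6.77 and 12.13 in WT and 13.59 and 10.96 in KO at day 0, and 28.22 and 24.79 in WT and 19.93 and 36.9 in KO at day 14. The KO pair spanned the WT pair at day 14. At day 7 it stood at 39.36 and 40.9 in WT and 25.05 and 51.92 in KO, and at day 4 at 22.31 and 8.24 in WT and 11.9 and 39.6 in KO. In both genotypes both libraries of day 7, and both of day 14, lay above both of day 0, but no difference passed. On the common scale the log2 at day 7 against day 0 was 1.48 in WT (95% interval 0.21 to 2.75, adjusted p = 0.127 in limma) and 0.94 in KO (adjusted p = 0.328). At day 14 it was 1.22 in WT (adjusted p = 0.192) and 0.87 in KO (adjusted p = 0.313). Scaled to library totals, the WT log2 was 0.69 at day 7 and 0.24 at day 14. Its KO against WT log2 at day 14 was 0.04, with a 95% interval of -1.23 to 1.3, which leaves room for a change of more than a doubling either way. The interaction was -0.35 (95% interval -2.18 to 1.47, adjusted p = 0.877).

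Rnu12 is the U12 snRNA that pairs with the branch point of minor introns. Among rows with a family name it was the other one specific to the minor spliceosome, since U5 serves both spliceosomes. Whether rows similar to none of the references belong to that spliceosome was not tested. At day 0 the libraries of Rnu12 were close, 10.16 and 8.49 in WT and 10.05 and 10.17 in KO. At day 4 they held 6.25 and 6.59 in WT and 5.64 and 4.06 in KO, and at day 7 they held 10.44 and 6.82 in WT and 13.66 and 35.34 in KO. At day 4 both KO libraries lay below both WT libraries and at day 7 above them. The row is blank at day 14, so its fit rests on the 12 libraries of the other days. The day 7 difference, a log2 of 1.29 (SE 0.6, 95% interval 0 to 2.58), had an adjusted p of 0.756 in limma, and without KO day 7 replicate 3 the log2 was 0.63.

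Gm22513, the U1-like row, was at 6.77 and 3.64 in WT and 7.68 and 6.26 in KO at day 0. At day 4 it was at 8.93 and 18.12 in WT and 11.28 and 12.19 in KO, and at day 7 at 14.46 and 6.82 in WT and 14.8 and 29.57 in KO. At day 14 it stood at 9.56 and 15.94 in WT and 23.92 and 37.83 in KO. The genotypes overlapped at days 0 and 4, and both KO libraries lay above both WT libraries at days 7 and 14. It did not pass the filter at day 0. With all rows with values kept, the log2 of KO day 14 against day 0 was 1.75 (SE 0.58, adjusted p = 0.0349 in limma), which would add it to the calls. In that setting 95 of all 304 rows were called.

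The U2-like and U5-like rows had values at days 0 and 4 alone. Gm26316, a U2-like row, had the highest mean of the snRNA rows at day 0, at 15.24 and 15.77 in WT and 14.77 and 33.65 in KO, and stood at 10.71 and 3.29 in WT and 4.38 and 9.14 in KO at day 4. Gm25360, also U2-like, was at 0 and 15.77 in WT and 11.82 and 14.09 in KO at day 0, and at 9.82 and 16.47 in WT and 4.38 and 7.11 in KO at day 4. The 2 rows thus overlapped between genotypes at day 0, and Gm25360 lay lower in both KO libraries at day 4. Gm25099, a U5-like row, stood at 6.77 and 8.49 in WT and 11.82 and 16.43 in KO at day 0, and at 10.71 and 4.94 in WT and 10.02 and 7.11 in KO at day 4. Gm25313, also U5-like, stood at 10.16 and 8.49 in WT and 8.27 and 8.61 in KO at day 0, and at 20.53 and 11.53 in WT and 5.64 and 11.17 in KO at day 4. Both KO libraries were above WT for Gm25099 at day 0 and below WT for Gm25313 at day 4. Gm25099 passed the filter at day 0 through its KO libraries alone, so its separation there was fixed by the filter. Rnu7, which did not pass the filter and is named after its values were seen, was at 0 and 8.49 in WT and 0.59 and 10.96 in KO at day 0, so the replicates of a genotype differed more than the genotypes.

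Genotypes were compared within each day over all rows that passed the filter. In limma 0 of 6, 0 of 6, 0 of 5 and 0 of 4 snRNA rows were called at days 0, 4, 7 and 14. Of all rows tested 0.0%, 0.294%, 0.623% and 3.95% were called at these days. At an unadjusted p under 0.05 there were 0, 0, 0 and 1 snRNA rows, and edgeR and DESeq2, run on the recovered reads of days 0 and 4, also called 0 there. The median log2 of the snRNA rows tested was 0.44, 0.34, 0.6 and 1.08, beside 0.07, 0.01, -0.02 and -0.01 over all rows tested. The day 0 median includes Gm25099, which passed the filter there through its KO libraries alone. Averaged over days, 0 of 2 snRNA rows were called by limma, 0 of them also at an unadjusted p under 0.05, against 2.57% of all rows. There the log2 was 0.68 for Gm24265 (95% interval -0.07 to 1.43, adjusted p = 0.35) and 0.23 for Rnu11 (95% interval -0.41 to 0.87, adjusted p = 0.715).

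At day 14 the widest difference between genotypes was that of Gm24265, at 48.4 ± 13.3 in WT and 148 ± 50.9 in KO (SD, n = 2). Its log2 of 1.57 (SE 0.7, 95% interval 0.09 to 3.06) had an unadjusted p of 0.0395 and an adjusted p of 0.25 in limma. In the authors' deposited table the same row has a log2 of 1.47 and an adjusted p of 0.00652, and limma on the 4 libraries of day 14 alone gave an adjusted p of 0.0252. That setting called 45 of all 304 rows, against 12 in the fit of all 16 libraries. In limma the call thus depends on whether the spread is taken from day 14 or from all 16 libraries. Gm22513 followed with a log2 of 1.22 (95% interval -0.01 to 2.44, adjusted p = 0.253 in limma) and Gm24407 with 0.95 (95% interval -1.08 to 2.98, adjusted p = 0.594). In the authors' deposited table these 2 rows have adjusted p-values of 0.359 and 0.395, and Rnu11 one of 0.973.

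**Figure D3:**
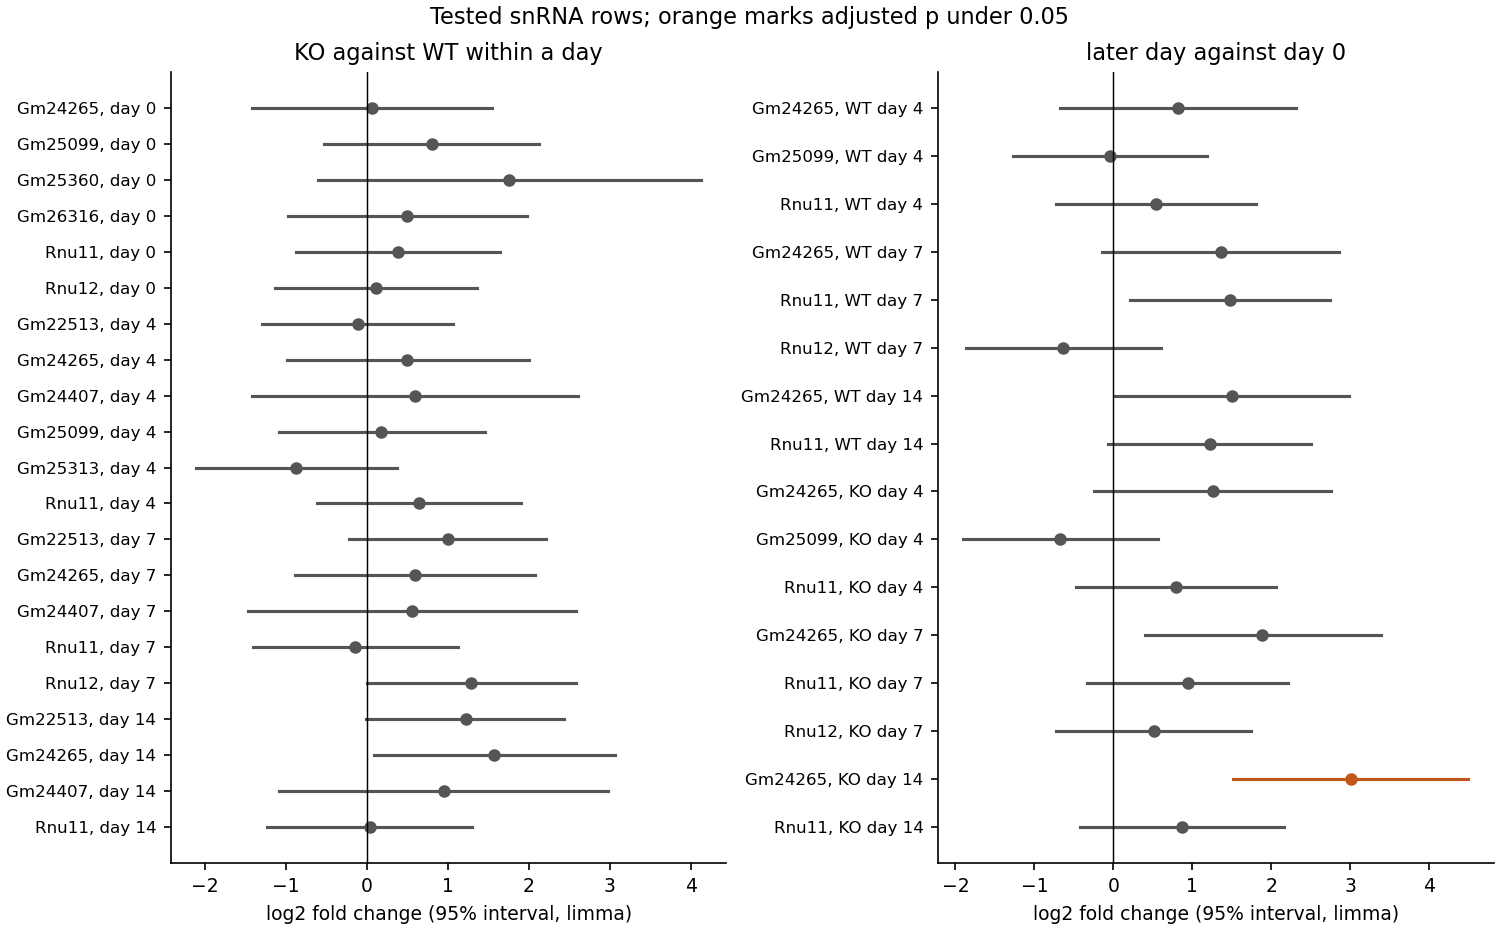
Points give the log2 fold change of each tested snRNA row in limma and lines its 95% interval (x axis, log2), for KO against WT within a day (left) and for a later day against day 0 within a genotype (right). Orange marks an adjusted p under 0.05, which Gm24265 in KO day 14 against day 0 (log2 3.01) alone reached, while at day 14 the KO against WT points of Gm24265, Gm22513 and Gm24407 lie at 1.57, 1.22 and 0.95 and that of Rnu11 at 0.04.

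The separation of libraries was also counted. Both KO libraries lay above both WT libraries in 1 of 6 snRNA rows at day 0, 0 of 6 at day 4, 3 of 5 at day 7 and 3 of 4 at day 14. Over all rows tested this held in 18.7%, 15.6%, 22.1% and 30.9%. The day 0 row was Gm25099, which reached a value of 10 in its KO libraries alone (11.82 and 16.43, with 6.77 and 8.49 in WT). Its separation thus follows from the filter and is not read as a result. The day 7 rows were Gm22513, Gm24407 and Rnu12, and the day 14 rows Gm22513, Gm24265 and Gm24407. Gm24265 and Gm24407 share nearly all their sequence and are not separate observations. Against day 0, both later WT libraries were higher in 1 of 3 snRNA rows at day 4, 2 of 3 at day 7 and 2 of 2 at day 14, where all rows gave 18.3%, 30.3% and 29.0%. In KO these were 0 of 3, 2 of 3 and 2 of 2, where all rows gave 23.1%, 29.3% and 35.5%. The remaining time comparisons of limma called 0 of 3 snRNA rows in WT at day 4 (2.24% of all rows called) and at day 7 (8.42%), and 0 of 3 in KO at day 4 (3.53%) and at day 7 (8.75%). At an unadjusted p under 0.05 these held 0, 1, 0 and 1 snRNA rows, and edgeR and DESeq2 called 0 at day 4 in both genotypes.

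KO day 4 replicate 3 carried the day 4 picture of the 3 highest rows. It held 101.55 of Gm24265, 47.73 of Gm24407 and 39.6 of Rnu11, against 11.9, 5.01 and 11.9 in its pair. With both KO libraries the KO against WT log2 at day 4 was 0.5, 0.6 and 0.64 for these rows, and without that library it was -0.99, -0.91 and -0.19. Against KO day 0, Gm24265 had a log2 of 1.26 at day 4, which became -0.25 without replicate 3 and 2.76 without replicate 2 (adjusted p = 0.00841 in limma). Of the 27 snRNA rows with a value at day 4, 21 were higher in replicate 3 than in its pair and 6 were lower. The higher rows include Gm23143, Gm23540 and Gm23846, which had 1 read in either library and differ by the size factors alone. The share over all rows was not counted, so this count is not read as a trait of the class. Among the lower-valued rows Gm22710 was at 13.2 against 3.13, Gm25313 at 11.17 against 5.64 and Gm26316 at 9.14 against 4.38. Gm22513 was close in both, at 12.19 and 11.28, and Gm25099 and Rnu12 were lower, at 7.11 against 10.02 and 4.06 against 5.64. In Gm24265 and Gm24407 the 2 KO libraries thus lay on either side of both WT libraries.

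Summed over the class, snRNA rows held a small share of every library. At day 0 the share was 0.0294% and 0.0446% in WT and 0.0349% and 0.0469% in KO, from 47 rows. At day 14 it was 0.0154% and 0.0134% in WT and 0.0307% and 0.0552% in KO, from 4 rows. The exact 95% binomial intervals at day 14 were 0.0136% to 0.0173% and 0.0102% to 0.0173% in WT, and 0.0259% to 0.0361% and 0.0495% to 0.0612% in KO. Between these days it was 0.0338% and 0.0267% in WT and 0.0216% and 0.0693% in KO at day 4, from 27 rows, and 0.0161% and 0.0155% in WT and 0.0178% and 0.0353% in KO at day 7, from 5 rows. Both KO libraries were above both WT libraries at days 7 and 14 and overlapped them at days 0 and 4. Reads amplified by PCR are not independent molecules, so these intervals and the limit of 3 reads at a count of 0 cover counting error only.

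The KO to WT ratio of the mean class share was 1.11, 1.5, 1.68 and 2.98 for days 0, 4, 7 and 14, or 0.14, 0.59, 0.75 and 1.58 in log2. The spread was taken as the SD of the log2 difference between 1 KO and 1 WT library, and was 0.52, 1.21, 0.7 and 0.62. The log2 of the ratio of means was below this SD at days 0 and 4, close to it at day 7 and above it at day 14. An SD for a difference of means of 2 libraries would be smaller. Leaving out 1 library in turn, the log2 ran from -0.12 to 0.48, -0.49 to 1.2, 0.17 to 1.16 and 1.09 to 1.94 at the 4 days, the day 4 value being -0.49 without KO replicate 3. No test was made on this sum.

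Shares of different days may be set side by side only over the 4 rows with a value at every day, Gm24265, Gm24407, Rnu11 and Gm22513. These held 0.00709% and 0.0137% in WT and 0.0114% and 0.0105% in KO at day 0. At day 4 they held 0.0142% and 0.0138% in WT and 0.00949% and 0.0497% in KO, so the KO pair spanned the WT pair. By day 7 they held 0.0148% in both WT libraries and 0.0161% and 0.0306% in KO. At day 14 they held 0.0154% and 0.0134% in WT and 0.0307% and 0.0552% in KO. As a share, the WT libraries of day 14 thus lay close to WT day 0 replicate 3, and both KO libraries of day 14 were above every day 0 library. KO day 4 replicate 3 was above KO day 14 replicate 2, so the KO shares did not rise in order of day. On the common scale, which is not lowered by the growing share of miR-92b-3p, the sum of the same rows was 27.1 and 48.5 in WT at day 0 and 119.9 and 99.1 at day 14. In KO it was 52.6 and 42.9 at day 0 and 187.2 and 313.4 at day 14. On that scale both day 14 libraries lay above both day 0 libraries in either genotype. Of these 4 rows Gm24265 and Gm24407 together made up 42.2% to 77.4% of the sum in a library, the highest in the 2 KO libraries of day 14.

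**Figure D4:**
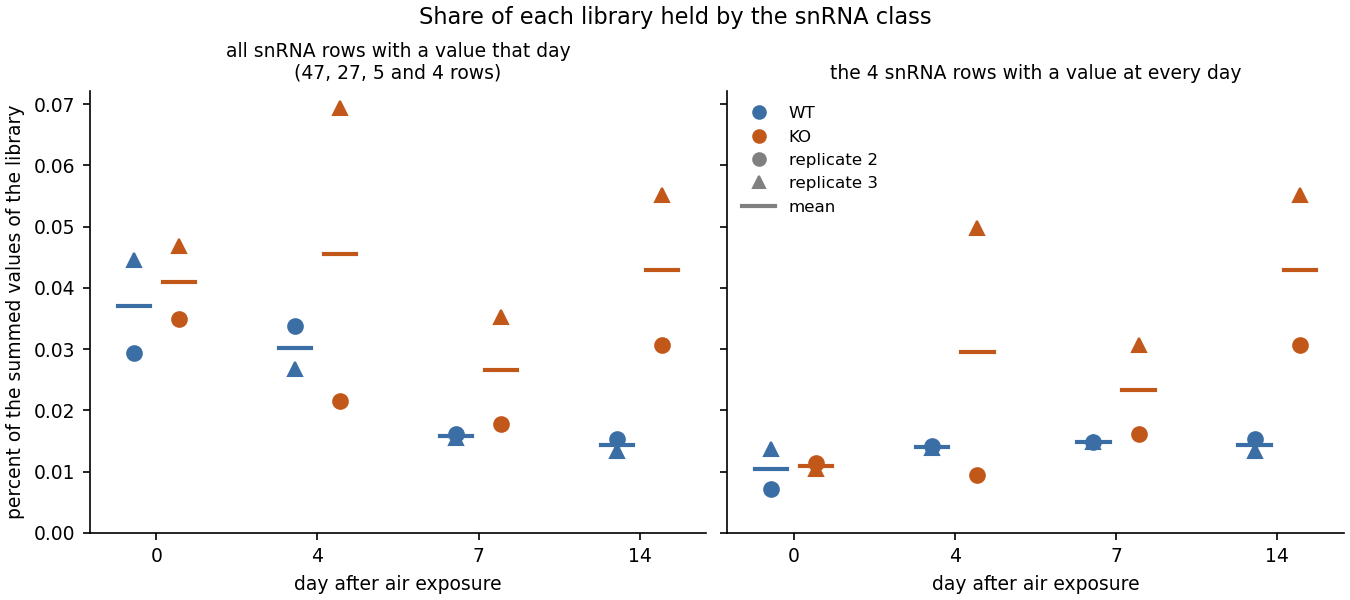
Points give the percent of the summed values of each library held by snRNA rows (y axis, from 0) by day of air exposure, on the left over all snRNA rows with a value that day (47, 27, 5 and 4) and on the right over the 4 rows with a value at every day. The left panel is lower at day 7 than at day 0 in WT, where 5 rows have a value in place of 47. On the right the WT libraries stay at 0.00709% to 0.0154%. The KO libraries there lie at 0.00949% and 0.0497% at day 4 and at 0.0307% and 0.0552% at day 14.

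Other RNA classes differed between the same libraries. At day 14 ribosomal RNA rows held 0.148% and 0.134% of the values in WT and 0.352% and 0.554% in KO, and 15 tested ribosomal rows had a median KO against WT log2 of 1.13, with 2 called higher. Small nucleolar RNA rows held 1.35% and 1.37% in WT and 1.86% and 2.16% in KO, and miRNA rows 97.1% and 96.8% in WT and 96.3% and 95.6% in KO. The part of these classes in the snRNA differences was not tested. The miRNA miR-92b-3p went from 1.67% and 2.3% of the values in WT at day 0 to 55.1% and 47.3% at day 14, and so lowers the share of every other row. With it left out of the total, the class share at day 14 was 0.0342% and 0.0254% in WT and 0.0602% and 0.109% in KO.

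Small Cajal body RNAs (Scarna genes), which guide chemical modification of snRNAs, were looked up as the other members of snRNA maturation. Of these, 9 rows were in the table, and 4 (Scarna3a, Scarna3b, Scarna6 and Scarna10) were tested in every comparison. Scarna3a rose in KO from day 0 to day 14, at deposited values of 73.28 and 44.6 against 209.95 and 234.34, with a log2 of 1.7 on the common scale (SE 0.36, adjusted p = 0.00427 in limma). Scarna3b rose in WT over the same days, from 25.4 and 25.48 to 57.35 and 77.92 (log2 1.12, SE 0.36, adjusted p = 0.0471). No other difference of a Scarna row passed in limma. Scarna10 at day 14, at 13.65 and 7.08 in WT and 33.22 and 21.22 in KO, had a log2 of 1.34 between genotypes (adjusted p = 0.199). No row of the table carried the name of 7SK, Y, vault, RMRP, RNase P or telomerase RNA.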

How the data were processed

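The deposited table is headed read counts, but its values are not whole. From the values themselves, they are a normalised signal, deposited as reads divided by a size factor made within each day. Per the submitters' processing notes, mm10 and DESeq2 (no version) were used; which aligner, annotation and counter were run is not given in the sources used here. Per the labels' protocols, RNA came from RNeasy columns and libraries from a TruSeq RNA kit, and read lengths are not in the table, so a fragment and a longer snRNA cannot be told apart. The authors' deposited table of comparisons gives log2 fold changes, the mean signal and an adjusted p-value per row.

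Each library's values were multiples of 1 step, taken as 1 read, within a tolerance of 0.0055. The steps gave whole reads for 100% of low values, but at days 7 and 14 low rows are blank and the step is less certain, so edgeR 4.0.16 and DESeq2 1.42.0 were run on recovered reads at days 0 and 4 alone. The main test was limma 3.58.1 in R 4.3.3 with a variance trend on log2(value + 1), with all 16 libraries in 1 fit of 8 groups, a filter that kept rows at 10 or above in 2 or more of the 4 libraries of each day compared, Benjamini-Hochberg adjustment over all rows tested and a threshold of 0.05. A fold change on this scale understates that of low rows. Blank libraries dropped out of a row's fit. For comparisons of days, values were divided by 2 to the power of a shift (log2 -0.191, -0.191, 0.388 and 0.052 for days 0, 4, 7 and 14, from 272 rows). 5 predicted miRNA rows that repeat a named miRNA were left out, which left 1264 rows. The test was tried on simulated data first. Rows are named if they passed the filter at any day or were among the 5 highest snRNA means, and Scarna rows where tested. The members and lists were chosen with earlier results of these data known. The sequence and position of some rows are not reported here.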

Additional observations from a re-analysis of the deposited data

How the results depend on the processing

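Of 601 values of single snRNA rows under other settings, 563 kept their direction and their side of the threshold and 33 changed sign, none of them past the threshold. KO against WT at day 0, Gm24265 had a log2 of -0.02 with TMM factors, -0.17 with library totals, -0.07 with miRNA factors and -0.03 in DESeq2, and Rnu12 one of -0.11 with library totals and -0.01 with miRNA factors. With library totals Gm22513 was at 0.03 at day 4 and the Rnu11 interaction at 0.22. Gm25099 in WT day 4 against day 0 was at 0.22 in edgeR and 0.09 in DESeq2. The cause was not tested. Leaving out 1 library in turn, KO against WT ran from -0.33 to 0.45 for Gm24265, -0.27 to 3.8 for Gm25360, -0.07 to 1.07 for Gm26316 and -0.01 to 0.23 for Rnu12 at day 0. At day 4 it ran from -0.59 to 0.36 for Gm22513, -0.99 to 2 for Gm24265, -0.91 to 2.11 for Gm24407, -0.31 to 0.67 for Gm25099 and -0.19 to 1.47 for Rnu11. For Rnu11 it ran from -0.66 to 0.36 at day 7, from -0.39 to 0.47 at day 14 and from -0.78 to 0.07 in the interaction. Against day 0, Gm25099 ran from -0.54 to 0.45 and Rnu11 from -0.13 to 1.22 in WT at day 4, Gm24265 from -0.25 to 2.76 and Rnu11 from -0.03 to 1.63 in KO at day 4, and Rnu12 from -0.13 to 1.16 in KO at day 7.

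The count of snRNA rows called was 1 at day 14 for KO against WT with the libraries of that day alone, where 45 of all 304 rows were called. It was 2 in KO day 14 against day 0 without the filter on low values, where 95 of all 304 rows were called. Leaving out 1 library gave 0 to 1 calls in KO against WT averaged over days, in KO day 4 against day 0 and in KO day 14 against day 0. The call of Gm24265 averaged over days came without KO day 4 replicate 2 (log2 1.06, adjusted p = 0.0143 in limma), and its KO day 14 against day 0 log2 ran from 2.65 to 3.37. With the replicate number as a block, KO day 7 against day 0 had 1 call, Gm24265 (log2 1.89, adjusted p = 0.0491 in limma), among 38 of all 297 rows called. No other count of snRNA calls moved. Over all rows, the block moved the count of calls from 7 to 14 in WT day 4 against day 0. Replicate differences of same-numbered libraries correlated across rows at -0.31 to 0.11 between genotypes, 0.08 to 0.26 within WT and 0.3 to 0.47 within KO, so a shared component by number is a hint from the data within KO. With 2 numbers and no such statement in the labels, the samples were not treated as paired. In KO day 14 against day 0, the median log2 over all rows was 0.08, or -0.35 with library totals and 0.47 with miRNA factors. In WT it was -0.06, or -1.08 with library totals, which called 136 rows in place of 45. Against day 0 with library totals, Gm24265 had a log2 of 0.56 at day 7 and 0.49 at day 14 in WT and 2.59 at day 14 in KO (adjusted p = 0.0117 in limma), and Rnu11 one of 0.69 and 0.24 in WT. A filter of 50 left no snRNA row in the other comparisons than KO against WT at days 7 and 14, so it gave no value there. Counts of 3 reads or fewer, in most rows, limit what can be seen of the class.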
